A study of Mus musculus with 6 samples.

Results

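The 39 Hox genes of the mouse were examined in a CUT&Tag study of Arid3a in vascular smooth muscle cells. Members were all protein-coding genes of the mm10 annotation named Hox with a cluster letter from a to d and a paralogue number, 39 of 21887 protein-coding genes. They fall into 11 Hoxa genes on chromosome 6, 10 Hoxb genes on chromosome 11, 9 Hoxc genes on chromosome 15 and 9 Hoxd genes on chromosome 2. Counts of genes below are over 38 of them. Peaks were taken from each cluster, from the first to the last base of its Hox genes, and from the 50 kb on either side. CUT&Tag uses an antibody, here against the DNA-binding protein Arid3a, to bring a transposase to chromatin, and the fragments it cuts there are sequenced. The siRNA-labelled group has 3 libraries from cells given siRNA 1, 2 or 3 against Arid3a. The other group, NC-labelled, has 3 libraries from cells given a negative control siRNA. All 6 libraries came from primary mouse vascular smooth muscle cells, the contractile cells of the vessel wall, bought from a supplier and incubated with siRNA for 24 h, with 10000 cells per assay. The labels also describe angiotensin II treatment as a culture model of abdominal aortic aneurysm, but do not say which libraries, if any, had it. They do not give the sex, strain or age of the source animals, or say whether libraries of a group were separate cultures, so p-values between groups reflect library-to-library spread that may be technical only. No library made without the Arid3a antibody was analysed here.

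Hox genes encode homeodomain transcription factors that give cells their position along the body axis. Their order along the chromosome mirrors their order of use: genes with low paralogue numbers act toward the head, and genes with high numbers toward the tail and the tips of the limbs. Adult vascular smooth muscle cells keep part of this code according to the vessel they come from, and Hox proteins bind DNA together with the TALE homeodomain proteins of the Pbx, Meis and Pknox families.

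The files hold 1 peak list per library, called by the authors with 43834 to 51682 peaks. For each peak they give the fold, the signal at the summit divided by the background around it, and the −log10 of a q-value. Both are the authors' values and describe peaks within their own list. The fold and the p-value together also fix a whole number of summit fragments and a local background, which were solved for 99.96% to 99.99% of the peaks. The list background was 0.475, 0.482 and 0.538 fragments in siRNA-labelled libraries 1 to 3, against 0.670, 0.673 and 0.621 in NC-labelled libraries 1 to 3. The siRNA-labelled libraries were thus all the shallower ones, so coverage and group cannot be told apart. The median −log10 q of all peaks was 7.90, 8.11 and 8.21 in siRNA-labelled libraries 1 to 3, against 9.42, 9.62 and 8.54 in NC-labelled libraries 1 to 3. A higher −log10 q in all NC-labelled libraries, given below for some HOX regions, thus also held for whole lists. The share of all regions that separated in −log10 q was not counted. The names that the lists give to their peaks are at odds with the sample labels in 6 of 6 lists: each bears the opposite group's name and the matching number. Groups follow the sample labels here, and every direction below is reversed if the peak names are the correct ones. Over the top 10% of shared regions by summit fragments, siRNA-labelled libraries 2 and 3 differed by a mean chi-square per region of 0.777, against 1.31 and 1.24 for their pairs with library 1. Libraries 2 and 3 were thus within sampling noise of each other there, and p-values are also given with them counted as 1 sample. The 3 NC-labelled pairs lay between 0.790 and 0.877, and keeping them as 3 samples is an assumption. Of 8 smooth muscle genes, Acta2, Tagln and Smtn had a promoter peak in all 6 lists, beside 45.1% of all protein-coding genes, while Myh11 and Des had one in none. None of 4 endothelial genes and 1 of 4 leukocyte genes (Cd68) had one in all 6. These counts describe CUT&Tag peaks and not expression, so they do not check the cell type.

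The promoters at both ends of the range are printed first, since the results turn on which Hox genes carried a peak. Of the 38 genes, 22 had an entry in the RefSeq promoter table (build GRCm38.p6, equivalent to mm10), which spans 250 bases before to 50 after each start. Hoxa4, Hoxb2, Hoxb3, Hoxb5, Hoxb6, Hoxb7, Hoxb9, Hoxb13, Hoxc5, Hoxc6, Hoxc8, Hoxc9, Hoxc10, Hoxc11, Hoxc12 and Hoxc13 had none. The first 2 sequences belong to Hoxa2 and Hoxc4, whose windows held a peak in all 6 lists. The other 4 belong to Hoxb1, Hoxd1, Hoxd3 and Hoxd4, which had a promoter peak in no list. Capitals mark ATTAAA and ATCAAA, AT-rich words of the kind ARID3A proteins bind, and TAAT, the core of homeodomain sites, on either strand.
Hoxa2, chr6:52164782-52165081, minus strand: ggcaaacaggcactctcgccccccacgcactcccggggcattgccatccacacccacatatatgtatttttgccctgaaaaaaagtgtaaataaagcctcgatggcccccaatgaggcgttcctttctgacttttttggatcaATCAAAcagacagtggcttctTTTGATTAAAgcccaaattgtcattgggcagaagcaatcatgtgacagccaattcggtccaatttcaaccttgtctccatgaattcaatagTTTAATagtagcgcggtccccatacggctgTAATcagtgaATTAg
Hoxc4, chr15:103034145-103034444, plus strand: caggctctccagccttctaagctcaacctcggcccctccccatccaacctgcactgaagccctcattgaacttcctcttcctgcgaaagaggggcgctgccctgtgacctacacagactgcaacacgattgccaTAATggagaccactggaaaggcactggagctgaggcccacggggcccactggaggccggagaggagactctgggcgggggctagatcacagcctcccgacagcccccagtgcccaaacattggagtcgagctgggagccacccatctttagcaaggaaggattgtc
Hoxb1, chr11:96365508-96365807, plus strand: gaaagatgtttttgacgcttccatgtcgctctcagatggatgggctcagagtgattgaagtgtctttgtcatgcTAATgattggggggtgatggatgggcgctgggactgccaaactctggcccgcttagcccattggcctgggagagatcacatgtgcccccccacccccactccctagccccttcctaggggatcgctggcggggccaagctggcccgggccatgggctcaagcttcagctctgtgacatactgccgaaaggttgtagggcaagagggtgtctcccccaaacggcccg
Hoxd1, chr2:74762730-74763029, plus strand: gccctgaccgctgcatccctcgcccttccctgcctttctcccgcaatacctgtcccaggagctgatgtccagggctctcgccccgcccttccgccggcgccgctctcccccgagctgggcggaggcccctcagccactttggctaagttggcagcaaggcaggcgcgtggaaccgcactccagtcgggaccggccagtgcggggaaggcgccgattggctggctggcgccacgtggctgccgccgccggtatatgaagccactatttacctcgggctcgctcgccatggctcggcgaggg
Hoxd3, chr2:74711743-74712042, plus strand: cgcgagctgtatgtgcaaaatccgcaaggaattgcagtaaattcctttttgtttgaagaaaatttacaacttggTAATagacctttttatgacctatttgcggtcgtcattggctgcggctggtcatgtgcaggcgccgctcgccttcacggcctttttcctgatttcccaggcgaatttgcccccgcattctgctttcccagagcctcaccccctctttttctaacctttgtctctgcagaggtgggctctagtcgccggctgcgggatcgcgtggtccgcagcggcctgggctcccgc
Hoxd4, chr2:74721728-74722027, plus strand: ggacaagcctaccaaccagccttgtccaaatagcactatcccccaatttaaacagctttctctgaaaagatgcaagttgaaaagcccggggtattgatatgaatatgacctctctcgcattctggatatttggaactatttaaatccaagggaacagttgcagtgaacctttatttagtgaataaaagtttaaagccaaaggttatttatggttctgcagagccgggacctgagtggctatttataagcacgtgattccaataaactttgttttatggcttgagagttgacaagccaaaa

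Hoxa2 held 2 ATTAAA and 2 ATCAAA words, and 1 of each overlapped as TTTGATTAAA near the middle of the window. Hoxc4, which also had a peak in every list, held neither word, and its single TAAT was its only marked base run. Hoxb1 and Hoxd3 likewise held 1 TAAT each, and Hoxd1 and Hoxd4 none of the 3 words. Each ATTAAA contains a homeodomain core on the other strand, so the words are not independent. Over the 24 Hox promoters of the 22 genes, 5 held ATTAAA, 3 held ATCAAA and 6 (25%) held at least 1 of the 2, beside 13.9%, 11.9% and 22.9% of all 32851 promoters of the same length. TAAT was in 19 Hox promoters (79.2%) and in 58.0% of all. The median GC content was 57.7% in Hox promoters and 52.7% in all. The most GC-rich Hox promoter, that of Hoxa13 with 81.0% GC and 45 CpG, held none of the words. A match is a run of letters and not a measured site.

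The clusters also hold 6 microRNA genes, whose mature RNAs share seeds (bases 2 to 8, in capitals) across clusters. They are shown with the number of lists that had a peak near each gene. The sequences are those of RefSeq.
mmu-miR-10a-5p: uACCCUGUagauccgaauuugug
mmu-miR-10b-5p: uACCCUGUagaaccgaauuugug
mmu-miR-196a-5p: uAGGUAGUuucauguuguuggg
mmu-miR-196b-5p: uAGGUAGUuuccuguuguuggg
mmu-miR-615-3p: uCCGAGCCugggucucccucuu
The pair miR-10a and miR-10b have the same seed. Mir10a, in the Hoxb cluster, had a peak within 1000 bp in 1 list, that of NC-labelled library 3, and Mir10b, in the Hoxd cluster, in 0. A peak in a single list sets the 2 copies apart only weakly. The 3 genes of the miR-196 seed (Mir196a-1 in Hoxb, Mir196a-2 in Hoxc and Mir196b in Hoxa) had one in 0 lists. Mir615, which lies inside Hoxc5 and has a seed of its own among the 6, had one in all 6 lists.

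Arid3a peaks were dense in the HOX clusters, low in fold, and missing from Hoxd. The 4 clusters together held 8.13, 9.55 and 10.4 peaks per 100 kb in siRNA-labelled libraries 1 to 3, against 9.14, 9.14 and 10.2 in NC-labelled libraries 1 to 3. Both groups lay in the same range. Outside the HOX windows the lists held 1.61 to 1.90 peaks per 100 kb, and 2.49 to 2.91 within 10 kb of protein-coding genes. The mean density inside the clusters was 3.41 times that near genes, and it was higher in 6 of 6 libraries (two-sided exact sign-flip test over libraries, p = 0.03125, the smallest that 6 libraries allow). The Benjamini-Hochberg adjusted p was 0.0352 over the 9 such comparisons made, by the exact sign-flip test. With siRNA-labelled libraries 2 and 3 as 1 sample the exact p was 0.0625, the smallest that 5 samples allow, here and in each comparison below in which all 6 libraries moved one way. Hoxa, Hoxb and Hoxc alone held 10.1 to 12.9 peaks per 100 kb, and Hoxd held 0 in every list. The libraries are of 1 cell source, and the test speaks to their spread and not to how often other gene-rich stretches of this length are as dense or as empty.

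**Figure D1:**
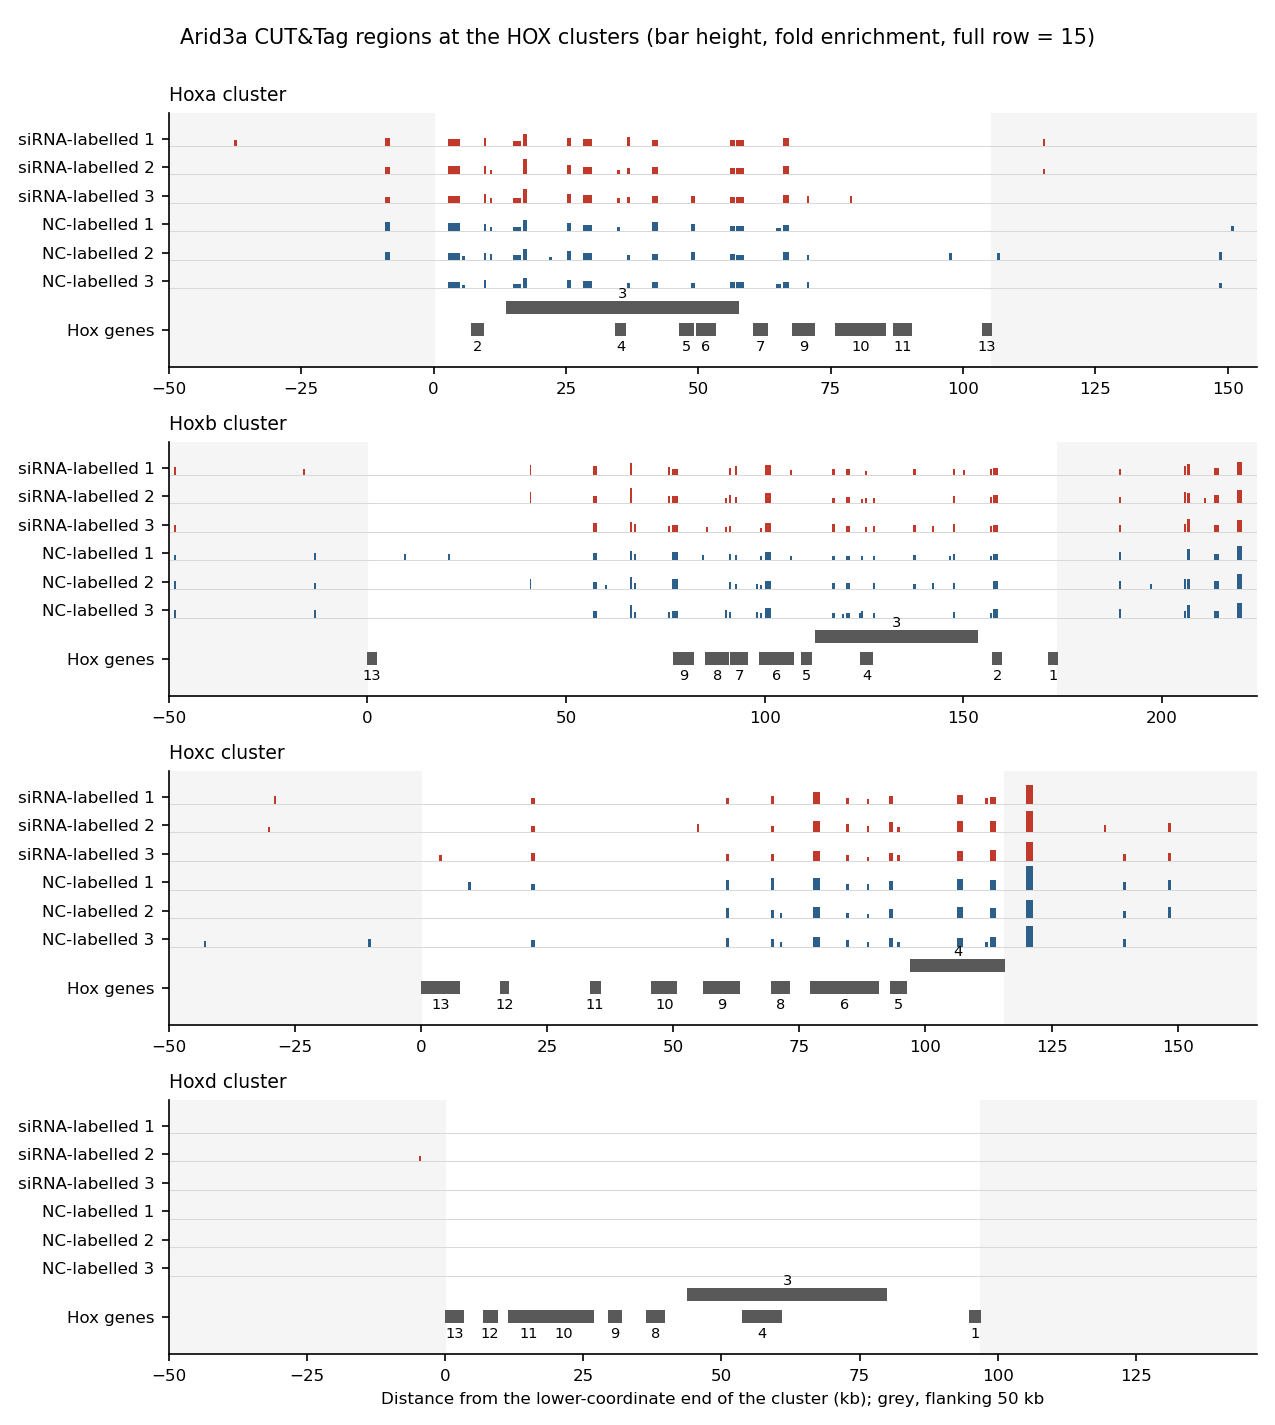
Arid3a peaks along the 4 HOX clusters in siRNA-labelled (red) and NC-labelled (blue) libraries 1 to 3. The x axis is the distance in kb from the lower-coordinate end of the cluster, grey marks the 50 kb flanks, bars are merged regions with a peak in that library with the fold as height (full row 15), and dark boxes are Hox genes with their paralogue numbers. Peaks crowd over Hoxa2 to Hoxa9, Hoxb9 to Hoxb2 and Hoxc9 to Hoxc4, and the Hoxd cluster holds 0.

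The peaks inside the clusters were of low fold, and their summits were high. Their median fold was 4.03, 3.97 and 4.14 in siRNA-labelled libraries 1 to 3, against 3.99, 3.98 and 3.75 in NC-labelled libraries 1 to 3. The same medians over the peaks outside the HOX windows were 5.87, 5.99 and 5.88 against 5.96, 6.02 and 5.81. Only 9.80% to 17.8% of the peaks inside the clusters lay above the median fold of their list. The summit fragments ran the other way, with medians of 25, 26 and 25 inside the clusters in siRNA-labelled libraries, against 30, 35 and 29 in NC-labelled libraries, and 16 to 19 elsewhere. The local background at these peaks was 10.2 to 12.8 times the list background inside the clusters and 3.18 to 3.56 times elsewhere. Median −log10 q was 6.49 to 9.18 inside and 7.90 to 9.62 elsewhere. Fold and −log10 q were lower inside, and fragments and local background higher inside, in 6 of 6 libraries each (exact sign-flip p = 0.03125 each, adjusted p = 0.0352). These measures are not independent, since the fold is the summit signal over the local background. A list also holds only peaks past the caller's cutoff, and where the background is high a peak passes with more fragments and at a lower fold. Their p-values are therefore not separate support. Median peak width was 332 to 536 bp inside and 403 to 509 bp elsewhere (exact sign-flip p = 0.156, adjusted p = 0.156), and narrower inside in 5 of 6 libraries.

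**Figure D2:**
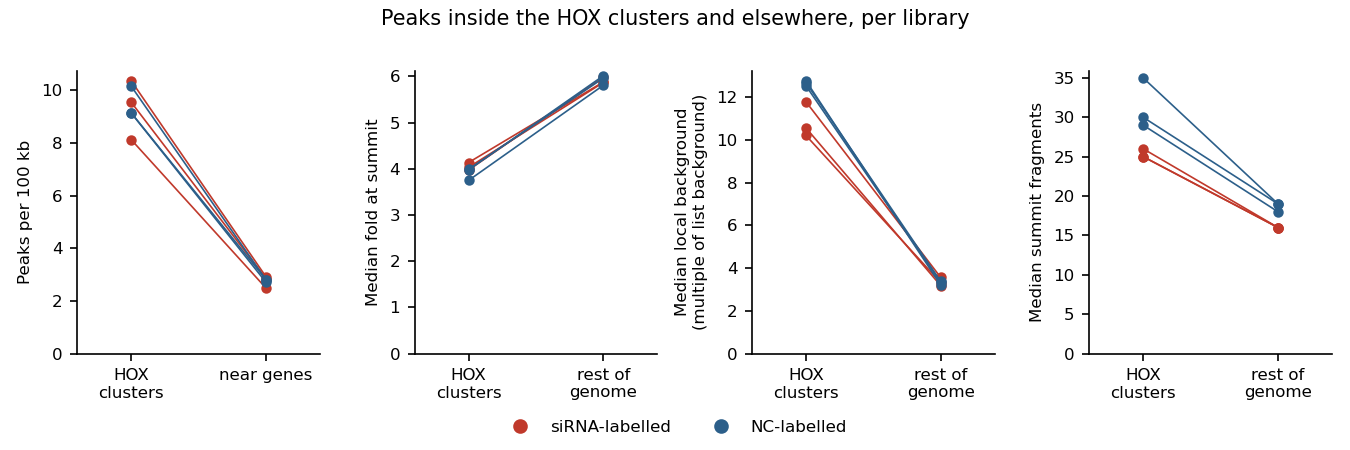
Peak density in peaks per 100 kb, median fold, median local background as a multiple of the list background, and median summit fragments, inside the HOX clusters and elsewhere (near protein-coding genes for density, the rest of the genome for the others). Each line joins the 2 values of 1 siRNA-labelled (red) or NC-labelled (blue) library, and all 6 lines run the same way in each panel.

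Merged over the 6 lists, the 4 windows held 92 of the 79295 regions of the whole series, 67 inside the clusters and 25 in the flanks. Of the 92, 30 (32.6%) had a peak in all 6 lists, beside 37.3% of all regions. Another 27 of the 92 were in 1 list, beside 30.2% of all regions, a similar share. At the level of genes, 10 of the 38 Hox genes (26.3%) had a peak within 1000 bp of a start in all 6 lists, beside 45.1% of all protein-coding genes. Another 6 had one in some lists, so that 16 had one in at least 1 list, beside 57.2% of all. The other 22 (57.9%) had one in none, beside 42.8% of all. The share of Hox genes with a peak in every list was thus below the background although the clusters were dense in peaks. For the 16 genes without a promoter entry both gene ends were used, which widens the chance of a match. A start inside such a gene would be missed. Of these 16, 7 had a peak in all 6 lists, against 3 of the 22 genes with an entry (46.0% of all genes with an entry). Of those 22, 15 had a promoter peak in no list, beside 42.5% of all genes with an entry. With the start of the 16 genes taken from the strand of their cluster instead, 9 of the 38 genes had a peak in all 6 lists and 22 again in none. Hoxa4 then had one in 5 lists in place of 6, and Hoxb6 in 4 in place of 5.

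Posterior paralogues and the Hoxd cluster had the fewest promoters with a peak. Of the 7 anterior genes (paralogues 1 to 3), 3 (42.9%) had a promoter peak in all 6 lists and 4 in none. Of the 15 central genes (paralogues 4 to 8), 6 (40%) had one in all 6 lists and 6 in none. Both shares lay near the 45.1% of all protein-coding genes, but the central share rests largely on genes searched at both ends. Of the 6 central genes only Hoxc4 had a promoter entry. With starts taken from the cluster strand, 5 of the 15 central genes had a peak in all 6 lists. Of the 16 posterior genes (paralogues 9 to 13), 1 (6.25%) had one in all 6 lists, Hoxb9, and 12 (75%) had one in none, beside 42.8% of all protein-coding genes. Without the Hoxd cluster, the counts with a peak in all 6 lists were 3 of 5 anterior, 6 of 13 central and 1 of 11 posterior genes. By cluster, 3 of 10 Hoxa, 3 of 10 Hoxb, 4 of 9 Hoxc and 0 of 9 Hoxd genes had a peak in all 6 lists. Both members of paralogue group 2, Hoxa2 and Hoxb2, had one in every list, and no member of groups 10 to 13 had one in more than 1 list. Where only peaks with −log10 q of at least 5 were used, 7 genes had one in all 6 lists and 24 in none, and the Hoxd cluster was again empty. The shares of all protein-coding genes at that cutoff were not counted, so the 45.1% and 42.8% do not apply to these counts.

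**Figure D3:**
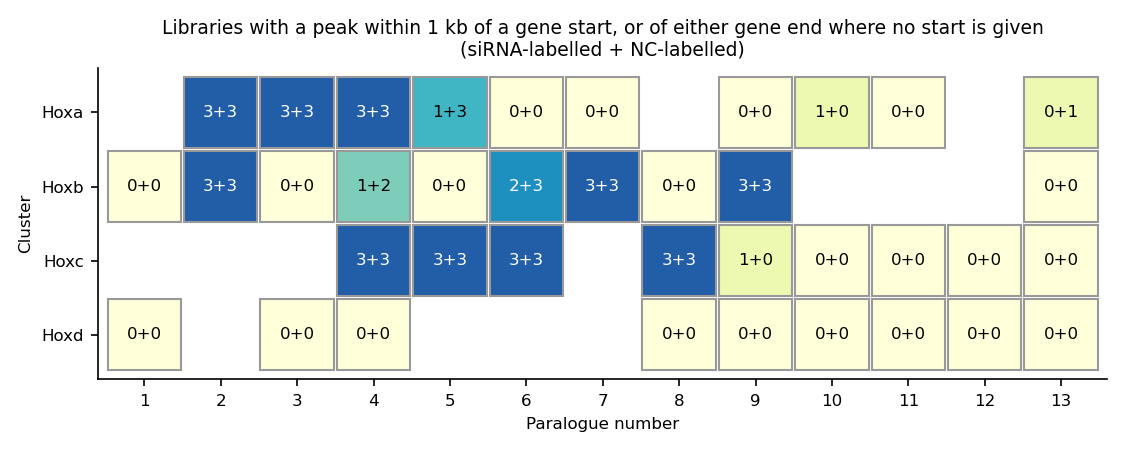
Number of lists with a peak within 1000 bp of a start of each Hox gene, or of either gene end for the 16 genes without a promoter entry, siRNA-labelled plus NC-labelled, by cluster (rows) and paralogue number (columns), darker for more lists and blank where no gene is shown. The 10 genes at 3+3 stand at paralogues 2 to 9, and the Hoxd row is at 0+0 throughout.

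In the Hoxa cluster (chromosome 6, 105.5 kb) the peaks lay mainly between Hoxa2 and Hoxa9. Hoxa2, which sets the identity of the second branchial arch, had a promoter fold of 5.10, 5.27 and 5.44 in siRNA-labelled libraries 1 to 3, against 4.83, 4.57 and 5.27 in NC-labelled libraries 1 to 3, and a −log10 q of 15.8, 16.4 and 20.3 (siRNA-labelled) against 20.3, 18.5 and 23.3 (NC-labelled). It had a peak in every list and the groups overlapped in fold. Hoxa3, needed for thymus and parathyroid formation, had a promoter peak in every list, and the region nearest its start, at chr6:52212399-52213927, had a fold of 3.47, 3.91 and 3.36 in siRNA-labelled libraries 1 to 3, against 3.56, 3.31 and 4.31 in NC-labelled libraries 1 to 3, and a −log10 q of 7.83, 11.7 and 9.04 (siRNA-labelled) against 13.4, 11.0 and 20.1 (NC-labelled). The groups overlapped in both measures. The long span of Hoxa3 held 8 to 11 peaks per list. Hoxa4 had peaks in separate regions near both of its ends. The region at chr6:52191907-52192381, beyond its higher-coordinate end, had a fold of 5.18, 3.63 and 3.93 in siRNA-labelled libraries 1 to 3, against 3.07 and 3.12 in NC-labelled libraries 2 and 3 and no peak in NC-labelled library 1. The region at chr6:52190062-52190589, near the other end, had a fold of 2.87 and 3.04 in siRNA-labelled libraries 2 and 3, against 2.64 in NC-labelled library 1, and no peak in the other lists.

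The other Hoxa genes had a promoter peak in 4 lists or fewer. Hoxa5, which directs lung and thoracic skeletal development, had a promoter peak in siRNA-labelled library 3 with a fold of 4.35, and in NC-labelled libraries 1 to 3 with 4.40, 5.01 and 3.18. Hoxa10, known from uterine development, had one in siRNA-labelled library 3 alone (fold 4.14). Hoxa13, known from digit and urogenital development, had one in NC-labelled library 2 alone (fold 4.38). Hoxa6, Hoxa7, Hoxa9, a regulator of blood progenitors, and Hoxa11, a forearm and kidney gene, had a promoter peak in no list. The 3 most highly ranked regions shared by all lists all lay within the Hoxa3 gene span. The region at chr6:52172321-52173021, which also overlaps the lncRNA Gm15050, had a fold of 7.14, 9.39 and 8.33 in siRNA-labelled libraries 1 to 3, against 7.35, 7.05 and 6.49 in NC-labelled libraries 1 to 3, and a −log10 q of 36.9, 59.0 and 52.5 (siRNA-labelled) against 54.0, 50.8 and 40.3 (NC-labelled). Library 2 was the highest of the siRNA-labelled libraries and of all 6, and the groups overlapped. The region at chr6:52180605-52181324 had a fold of 5.03, 5.51 and 5.33 in siRNA-labelled libraries 1 to 3, against 4.92, 5.49 and 5.15 in NC-labelled libraries 1 to 3, and a −log10 q of 24.4, 28.8 and 30.5 (siRNA-labelled) against 34.3, 43.3 and 34.9 (NC-labelled). The region at chr6:52183640-52185272 had a fold of 4.39, 4.74 and 4.67 in siRNA-labelled libraries 1 to 3, against 4.15, 4.44 and 4.44 in NC-labelled libraries 1 to 3, and a −log10 q of 18.3, 20.4 and 22.0 (siRNA-labelled) against 23.8, 28.0 and 25.7 (NC-labelled). Both overlap the lncRNA LOC115490409. Their folds overlapped between the groups, and their −log10 q was higher in every NC-labelled than in every siRNA-labelled library.

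The Hoxb cluster (chr11:96194316-96368254, 173.9 kb) held 32 regions, of which 9 had a peak in every list. Hoxb2, a hindbrain gene, had a promoter fold of 4.25, 4.90 and 4.25 in siRNA-labelled libraries 1 to 3, against 4.03, 4.85 and 5.21 in NC-labelled libraries 1 to 3, and a −log10 q of 7.64, 9.53 and 7.99 (siRNA-labelled) against 8.58, 13.8 and 16.0 (NC-labelled). Hoxb7 had a promoter fold of 4.41, 5.20 and 3.57 in siRNA-labelled libraries 1 to 3, against 3.83, 4.59 and 3.24 in NC-labelled libraries 1 to 3, and a −log10 q of 6.58, 10.6 and 4.64 (siRNA-labelled) against 6.24, 9.85 and 3.75 (NC-labelled). Hoxb9, which takes part in rib patterning, was the single posterior gene with a promoter peak in every list. Its shared region at chr11:96271060-96272451, over its lower-coordinate end, had a fold of 3.32, 4.31 and 4.40 in siRNA-labelled libraries 1 to 3, against 5.19, 6.22 and 4.31 in NC-labelled libraries 1 to 3. The −log10 q there was 3.24, 6.96 and 8.36 (siRNA-labelled) against 16.6, 23.3 and 9.35 (NC-labelled). A separate region within 1000 bp of that end, at chr11:96269866-96270333, had a peak in siRNA-labelled libraries 1 to 3 (fold 4.75, 4.48 and 3.90) and in NC-labelled library 3 (fold 3.56). The NC-labelled libraries had the larger −log10 q in the shared Hoxb9 region without overlap, the folds there overlapped, and at Hoxb2 and Hoxb7 the groups overlapped in both measures. Hoxb4, a regulator of blood stem cells, had a promoter peak in siRNA-labelled library 2 (fold 3.02) and in NC-labelled libraries 1 and 3 (fold 2.73 and 4.08). Hoxb6 had a peak near at least 1 of its ends in 5 lists, spread over 3 regions. The region at chr11:96293111-96293504 had a fold of 2.59 in siRNA-labelled library 3, against 2.60, 2.20 and 2.50 in NC-labelled libraries 1 to 3. The region at chr11:96292032-96292391, near the same end, had a peak in NC-labelled libraries 2 and 3 alone (fold 2.98 and 3.26). The region at chr11:96300792-96301065, near the other end, had a fold of 3.16 in siRNA-labelled library 1, against 3.05 in NC-labelled library 1. Hoxb1, the gene of the fourth rhombomere, had no promoter peak, and the nearest peak of each list lay 12747 to 12754 bp from its start. Hoxb3, Hoxb5, Hoxb8 and the prostate gene Hoxb13 had none either, but the span of Hoxb3 held 6 to 8 peaks in every list. Hoxb3 had no promoter entry, so only its ends were searched, and a peak at a start inside its span would be missed.

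The most highly ranked shared region of the Hoxb window lay in the flank beyond Hoxb1, at chr11:96413343-96414439, and had a fold of 7.72, 8.40 and 7.48 in siRNA-labelled libraries 1 to 3, against 8.79, 9.28 and 8.87 in NC-labelled libraries 1 to 3, and a −log10 q of 20.6, 23.7 and 22.0 (siRNA-labelled) against 36.7, 38.9 and 34.8 (NC-labelled). NC-labelled libraries were all above siRNA-labelled ones there in both measures. A second flank region, at chr11:96400611-96401279, had a fold of 6.54, 6.24 and 8.17 in siRNA-labelled libraries 1 to 3, against 7.05, 6.25 and 7.54 in NC-labelled libraries 1 to 3, and a −log10 q of 16.4, 14.5 and 27.9 (siRNA-labelled) against 25.2, 20.5 and 27.1 (NC-labelled), with overlapping groups. Within the cluster the highest rank belonged to a region at chr11:96294453-96295799, in Hoxb6 and the antisense transcript Hoxb5os, which had a fold of 6.22, 6.16 and 5.31 in siRNA-labelled libraries 1 to 3, against 5.51, 5.10 and 6.14 in NC-labelled libraries 1 to 3, and a −log10 q of 23.1, 22.9 and 17.7 (siRNA-labelled) against 26.0, 23.0 and 29.6 (NC-labelled). The groups overlapped there too. Peaks were assigned by position, so a region in overlapping genes cannot be given to 1 of them.

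In the Hoxc cluster (chr15:102921131-103036856, 115.7 kb) Hoxc4, Hoxc5, Hoxc6 and Hoxc8 had a promoter peak in every list and Hoxc9 to Hoxc13 did not. Hoxc6, a thoracic patterning gene, had the highest promoter −log10 q of the 38 genes in each list, with a fold of 7.09, 7.10 and 6.20 in siRNA-labelled libraries 1 to 3, against 6.97, 6.81 and 6.11 in NC-labelled libraries 1 to 3, and a −log10 q of 36.2, 36.8 and 32.3 (siRNA-labelled) against 52.6, 53.5 and 39.8 (NC-labelled). Hoxc5 had a promoter fold of 4.99, 6.16 and 4.63 in siRNA-labelled libraries 1 to 3, against 5.05, 5.59 and 5.21 in NC-labelled libraries 1 to 3, and a −log10 q of 10.7, 16.8 and 10.2 (siRNA-labelled) against 17.5, 20.3 and 17.7 (NC-labelled). Hoxc4, the last gene of the row, had a promoter fold of 4.53, 6.88 and 6.64 in siRNA-labelled libraries 1 to 3, against 5.81, 6.29 and 6.19 in NC-labelled libraries 1 to 3, and a −log10 q of 8.01, 18.6 and 19.4 (siRNA-labelled) against 17.9, 24.0 and 21.1 (NC-labelled). The folds of these genes overlapped between the groups. The −log10 q of Hoxc5 and Hoxc6 was higher in every NC-labelled library, as was the median −log10 q of the whole list. Hoxc8, known from brachial motor neurons, had a promoter fold of 4.82, 3.71 and 4.54 in siRNA-labelled libraries 1 to 3, against 7.03, 4.90 and 4.88 in NC-labelled libraries 1 to 3, and a −log10 q of 6.77, 3.75 and 6.03 (siRNA-labelled) against 18.7, 9.34 and 9.57 (NC-labelled). Its NC-labelled libraries were all higher in both measures, library 1 the most, though the nearest folds were 4.82 and 4.88. The summit fragments of this region overlapped between the groups after the centring by library described below. Hoxc9, which sets thoracic motor neuron fate, had a promoter peak in siRNA-labelled library 2 alone (fold 5.46). Hoxc10, Hoxc11, Hoxc12 and the hair follicle gene Hoxc13 had one in no list.

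The region with the highest values of the whole HOX set lay 4210 bp beyond the last base of Hoxc4, at chr15:103041066-103042389 in the lncRNA Gm30528. It had a fold of 11.7, 13.1 and 11.7 in siRNA-labelled libraries 1 to 3, against 14.7, 10.9 and 12.8 in NC-labelled libraries 1 to 3, and a −log10 q of 58.4, 68.7 and 58.7 (siRNA-labelled) against 113, 78.1 and 84.5 (NC-labelled). NC-labelled library 1 was the highest of the 6, the groups overlapped in fold, and the NC-labelled libraries were all higher in −log10 q. The region at chr15:102998840-103000270 supplied the promoter values of Hoxc6 given above. It had 74, 75 and 74 summit fragments in siRNA-labelled libraries, against 110, 114 and 93 in NC-labelled libraries, before any scaling for coverage. After the centring by library described below the groups overlapped (log2 difference -0.21, SE 0.118, adjusted p = 0.517 by limma). The third region, at chr15:103027303-103028488 in Hoxc4 and Gm30528, had a fold of 5.64, 7.34 and 6.19 in siRNA-labelled libraries 1 to 3, against 6.68, 6.71 and 5.46 in NC-labelled libraries 1 to 3, and a −log10 q of 11.9, 18.8 and 16.1 (siRNA-labelled) against 24.4, 25.0 and 17.1 (NC-labelled). The groups overlapped there in both measures. Among non-coding neighbours, distances were taken from the gene span and not from a start. Hotair, the lncRNA between Hoxc11 and Hoxc12, had a peak within 1000 bp in 5 lists, beyond its lower-coordinate end. Those peaks were weak, with 6 to 8 summit fragments and a −log10 q of 2.28 to 3.83. Hottip beyond Hoxa13 had a peak within 1000 bp in 1 list, and Haglr in the Hoxd cluster in 0. Other lncRNAs, among them Hoxaas2, Hoxaas3, Mira, Hoxb3os, Hoxb5os and Gm30528, had one in all 6 lists.

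The Hoxd cluster (chr2:74668225-74765142, 96.9 kb) held 0 peaks in siRNA-labelled libraries 1 to 3 and 0 in NC-labelled libraries 1 to 3. All 9 genes were without a promoter peak and without a peak in the gene body: Hoxd1, known from sensory neurons, Hoxd3, known from the first vertebra, Hoxd4, Hoxd8 and Hoxd9, and the limb genes Hoxd10 to Hoxd13. A single peak lay in the 50 kb flanks, at chr2:74663407-74663608 in siRNA-labelled library 2, with a fold of 3.37 and 4617 bp from Hoxd13. From Hoxd1 the nearest peak of each list lay 62543 to 62668 bp away, beyond the flank. All 9 genes had a promoter entry, so their starts are known. Near protein-coding genes the lists held 2.49 to 2.91 peaks per 100 kb. A list holds only what passed the peak caller, with a lowest −log10 q of 1.30 to 1.32, so weaker signal was not detectable at this depth.

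Whether the siRNA-labelled libraries had fewer HOX peaks was asked first at the level of counts. The windows held 52, 60 and 61 peaks in siRNA-labelled libraries 1 to 3, against 56, 59 and 62 in NC-labelled libraries 1 to 3. The groups overlapped, with a mean difference of -1.33 peaks (siRNA-labelled minus NC-labelled, two-sided exact permutation p = 0.8 over 20 assignments, 0.6 with libraries 2 and 3 as 1 sample). An exact permutation test of 3 against 3 libraries cannot give a p below 0.1. Hox genes with a promoter peak numbered 11, 12 and 13 of 38 in siRNA-labelled libraries, against 13, 13 and 13 in NC-labelled libraries (difference -1, exact permutation p = 0.4, and 0.1 with libraries 2 and 3 as 1 sample). Of all protein-coding genes, 49.2% to 51.9% had one per library. Over the 92 regions, 24 had a peak in more siRNA-labelled libraries, 31 in more NC-labelled libraries and 37 in the same number. The same split over the regions of the whole series was not counted, so no direction is read from it. Of the 38 genes, 0 had a promoter peak in all siRNA-labelled and no NC-labelled list, beside 0.0959% of all protein-coding genes, and 0 the other way round, beside 0.155%.

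The length under HOX peaks was shorter in every siRNA-labelled library. It was 26.6, 24.6 and 28.9 kb in siRNA-labelled libraries 1 to 3, against 35.5, 35.9 and 32.3 kb in NC-labelled libraries 1 to 3. The groups did not overlap, and the mean difference was -7.88 kb (two-sided exact permutation p = 0.1, the smallest possible, and also 0.1 with libraries 2 and 3 as 1 sample). The Hoxa window had 8.42, 8.30 and 10.6 kb in siRNA-labelled libraries 1 to 3, against 12.0, 14.2 and 11.0 kb in NC-labelled libraries 1 to 3. The Hoxb window had 10.7, 9.41 and 11.5 kb in siRNA-labelled libraries, against 15.3, 13.7 and 12.2 kb in NC-labelled libraries. The Hoxc window had 7.52, 6.66 and 6.84 kb in siRNA-labelled libraries, against 8.22, 8.02 and 9.09 kb in NC-labelled libraries. The groups did not overlap in any of the 3 windows (exact permutation p = 0.1 each). The peaks of the whole genome covered 22.5, 23.5 and 25.4 Mb in siRNA-labelled libraries, against 27.4, 27.7 and 27.5 Mb in NC-labelled libraries, a ratio of means of 0.865 beside 0.772 for the HOX windows. As a share of each library's covered length, the HOX windows held 0.118%, 0.105% and 0.114% in siRNA-labelled libraries, against 0.130%, 0.129% and 0.118% in NC-labelled libraries. These shares overlapped (exact permutation p = 0.2, and 0.3 with libraries 2 and 3 as 1 sample). Covered length also moves with coverage, whose part in the difference was not tested.

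**Figure D4:**
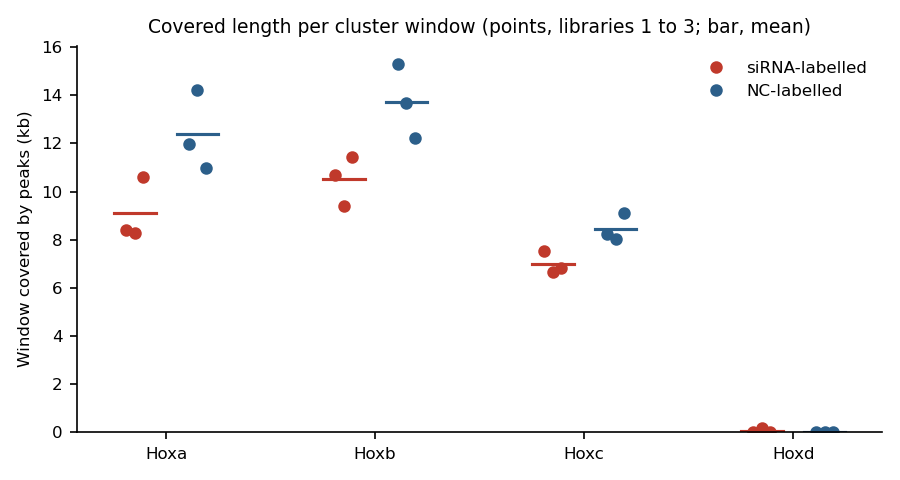
Length in kb covered by peaks in each HOX window, with points for siRNA-labelled (red, left) and NC-labelled (blue, right) libraries and a bar for the mean. In Hoxa, Hoxb and Hoxc all siRNA-labelled points lie below all NC-labelled points, and Hoxd lies at or near 0 in all 6 libraries.

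Of the 92 HOX regions 1 was present in all siRNA-labelled and no NC-labelled list, and 1 the other way round, beside 0.342% and 0.608% of the 79295 regions in all. The siRNA-labelled region, at chr11:96319661-96320072 in the Hoxb4 gene and the longer Hoxb3 span, had a fold of 2.43, 3.21 and 3.32 and 15, 19 and 23 summit fragments. The NC-labelled region, at chr11:96180938-96181444 in the flank 12891 bp from Hoxb13, had a fold of 4.87, 3.92 and 4.40 and 11, 8 and 9 summit fragments. All 6 of these folds lay below the median fold of their list, which was 5.81 to 6.01.

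Signal within shared regions was compared on the log2 scale of summit fragments plus 1, centred on each library's median over the 29589 regions shared by all 6 lists. Of the 30 HOX regions, 0 were higher and 0 lower in siRNA-labelled libraries by limma at a Benjamini-Hochberg adjusted p under 0.05, beside 0.0879% higher and 0.118% lower of all regions. At an unadjusted p under 0.05 there were 4, beside 11.2% of all. The lowest adjusted p in the set belonged to the region over the lower-coordinate end of Hoxb9, at chr11:96271060-96272451, with 15, 22 and 26 summit fragments in siRNA-labelled libraries, against 44, 52 and 30 in NC-labelled libraries. Each siRNA-labelled library was below each NC-labelled one there before and after centring, and the log2 difference was -0.68 (SE 0.189, adjusted p = 0.108 by limma). The other 3 were the flank region beyond Hoxb1 (-0.33, SE 0.144), the Hoxc8 promoter region (-0.49, SE 0.208) and the region beyond Hoxc4 (-0.25, SE 0.113), with limma adjusted p of 0.361, 0.340 and 0.388. The median log2 difference was -0.16 over the 30 HOX regions, of which 9 were above 0, and 0.0017 over all regions. In 9 HOX regions all siRNA-labelled libraries lay below all NC-labelled ones, and in 0 above, beside 7.86% and 7.88% of all regions. The Hoxa region with the highest rank, within Hoxa3, differed by 0.11 (SE 0.114, adjusted p = 0.773 by limma). Dividing by the list background instead of centring moved the median of all regions to 0.11 and that of the HOX regions to -0.05. Either scaling shifts all regions of a library alike. The gap of -0.16 between the medians therefore could not change and is no separate support. On that scale 2 HOX regions were lower and 1 higher without overlap, beside 3.46% and 15.2% of all regions.

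**Figure D5:**
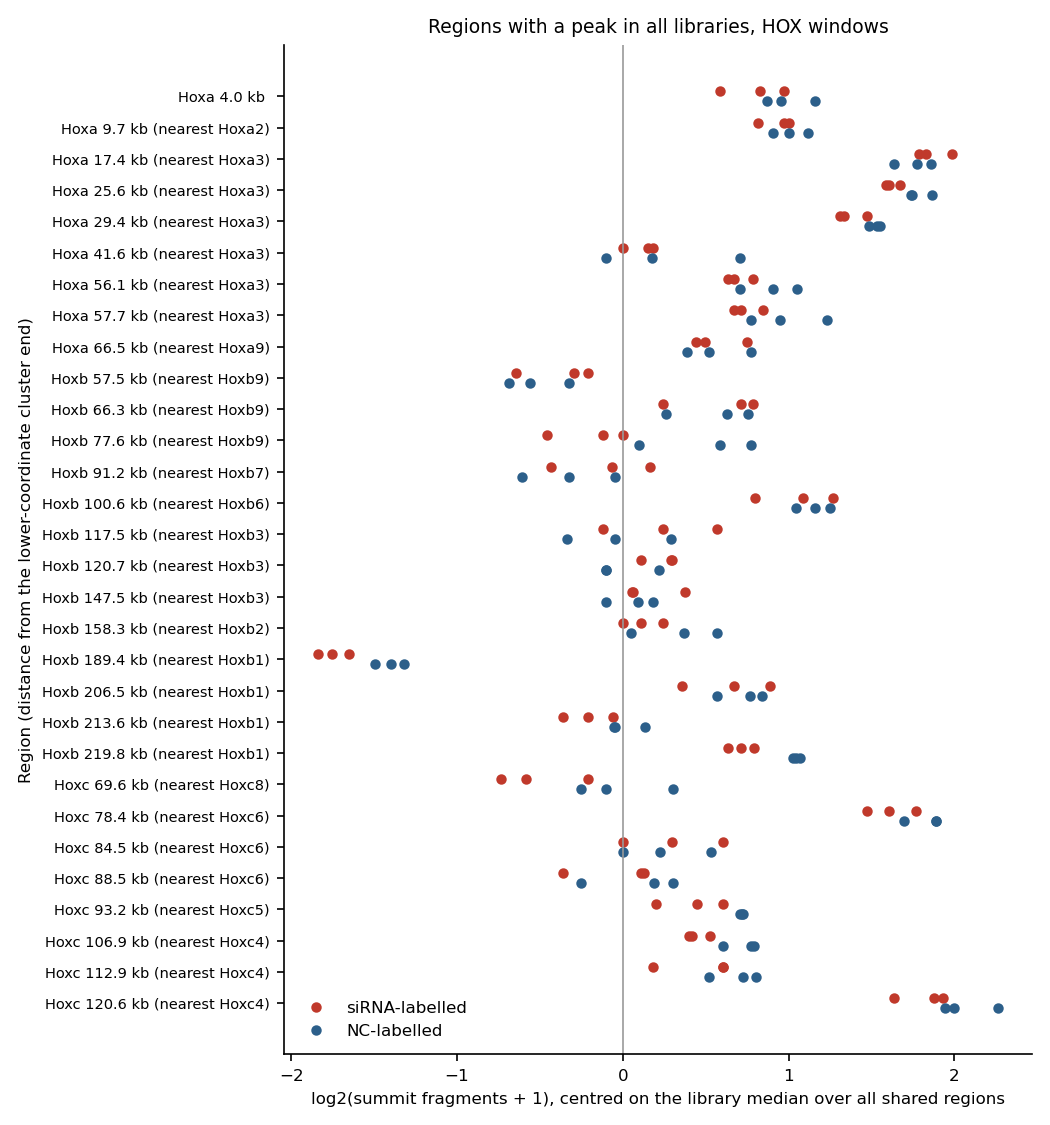
Centred log2(summit fragments + 1) of the 30 HOX regions with a peak in all 6 lists, with siRNA-labelled libraries (red) above NC-labelled libraries (blue) in each row. Rows are ordered by cluster and by distance in kb from its lower-coordinate end, with the nearest Hox gene named in most rows, and 0 is the library median over all shared regions. In 9 rows every red point lies left of every blue point.

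Genes that act with or above the Hox genes were compared as lists that the Hox rule did not include. Of the 8 TALE cofactors, 5 had a promoter peak in all 6 lists (Pbx3, Pbx4, Meis1, Pknox1 and Pknox2), beside 45.1% of all protein-coding genes. Per library 6, 6 and 7 had one in siRNA-labelled libraries, against 8, 6 and 8 in NC-labelled libraries. Pknox1 was among the highest, with a fold of 13.1, 16.6 and 14.7 in siRNA-labelled libraries 1 to 3, against 14.2, 16.5 and 13.6 in NC-labelled libraries 1 to 3. Meis1, the lowest of the 5, had a fold of 4.49, 5.69 and 5.90 in siRNA-labelled libraries, against 4.78, 4.61 and 4.96 in NC-labelled libraries. Pbx2, Meis2 and Meis3 had a promoter peak in 3, 4 and 4 lists. Of 13 upstream regulators and neighbours, 4 had one in all 6 lists, beside the same 45.1%: the histone methyltransferases Kmt2a and Kmt2b and the retinoic acid receptors Rara and Rarg. Kmt2a, which keeps Hox genes active, had a fold of 9.38, 12.1 and 10.9 in siRNA-labelled libraries 1 to 3, against 10.9, 10.3 and 10.8 in NC-labelled libraries 1 to 3. The receptor Rarb had one in 2 siRNA-labelled and 3 NC-labelled lists. The caudal genes Cdx1, Cdx2 and Cdx4, the Hox neighbours Evx1 and Evx2, and the retinoic acid enzymes Aldh1a2, Cyp26a1 and Cyp26b1 had one in no list. The groups overlapped in fold at Pknox1, Meis1 and Kmt2a.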

How the data were processed

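Arid3a CUT&Tag was measured in 3 siRNA-labelled and 3 NC-labelled libraries of mouse vascular smooth muscle cells. The submitters' processing notes name the tools Bowtie2, Picard and MACS2 and the build mm10, and versions and settings are not given there. Peaks were called per library. Beside each peak's interval and summit the authors deposited a score, a fold (ratio) at the summit, a −log10 p-value and a −log10 q-value. Smallest −log10 q values lay at 1.30 to 1.32.

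Members and lists were chosen with earlier results of these data known. Gene positions and promoter sequences came from RefSeq GRCm38.p6. A promoter peak overlapped by at least 1 bp the 1000 bp either side of a start, or of both gene ends where no start was given. Peaks were merged over the 6 lists into regions by an overlap of at least 1 bp. Whole summit fragments and local background were solved from the deposited fold and −log10 p within a tolerance of 0.002. The solver returned the simulated fragments for 100% of 2997 simulated summits. Libraries of 16 to 19 median summit fragments have a large counting error at a typical peak. Chromosome lengths were taken from the last peak end.

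Groups were compared by two-sided exact permutation over 20 assignments. HOX peaks were compared with the rest by exact sign-flip tests over libraries. Summit fragments were compared by limma 3.58.1 (R 4.3.3) with a trend and a pseudocount of 1, over all 29589 shared regions. On simulated data of that size limma recovered 75% of 2-fold and 100% of 4-fold changes, with 7 false calls. The simulated libraries differed by counting noise alone, without further spread between libraries. Changes below 2-fold, the size of all HOX differences here, were not simulated, so recovery at that size is not known. Named regions were the 3 shared regions per cluster with the highest lowest within-list percentile of −log10 q, and all one-sided regions. Named genes were 38 of the 39. The remaining gene, and 1 gene of the cofactor list, are not reported here. Alternatives were a −log10 q of at least 5, equal list lengths, windows of 500 and 2500 bp, clusters alone, a region cover of at least 50%, scaling by list background, a pseudocount of 0.5, a mean of at least 20 fragments, each library left out, a replicate block, and siRNA-labelled libraries 2 and 3 as 1 sample. Gene starts by cluster strand, and the alternatives for peak density, were added after seeing the data. Python 3.11.15, numpy 2.4.6, pandas 2.3.3 and scipy 1.17.1 were used.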

Additional observations from a re-analysis of the deposited data

How the results depend on the processing

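The difference in HOX peaks (siRNA-labelled minus NC-labelled, -1.33) was 0 when peaks below a −log10 q of 5 were left out. It ranged from -3 to 1.5 with 1 library left out, turning positive without siRNA-labelled library 1 (1.5) and without NC-labelled library 3 (0.167), and the cause was not tested. The covered length was shorter in siRNA-labelled libraries under all 11 alternatives, with differences of -6.11 to -9.01 kb, and the count of promoter genes was lower under all 13. One-sided HOX regions numbered 2, against 1 with −log10 q of at least 5, 1 with equal list lengths and 1 in the clusters alone. With 1 library left out they numbered 2 to 7, with 7 without siRNA-labelled library 3 and 6 without NC-labelled library 1, since a list left out no longer has to hold or lack a peak. HOX regions called by limma were 0 under all 12 alternatives, with 1 to 5 at an unadjusted p under 0.05. The density of peaks inside the clusters exceeded that near genes by 6.66 per 100 kb, by 4.41 with −log10 q of at least 5, and by 6.50 to 6.86 with 1 library left out. Its exact p was then 0.0625, the smallest that 5 libraries allow, as it was with siRNA-labelled libraries 2 and 3 averaged (6.57). Same-numbered libraries of the groups did not deviate together (r of 0.042, 0.033 and -0.023), so the numbers were not read as pairs. With the replicate block the exact p was 0.75 for peaks, 0.25 for covered length (the smallest it allows) and 0.5 for promoter genes. The limma calls with the block were 47 higher and 72 lower over all regions, against 26 and 35 without it. Over all regions, without siRNA-labelled library 1 they were 103 higher and 232 lower, and with background scaling 121 and 10. The depth of 16 to 19 fragments at a typical summit limits all of these.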
